A study of Mus musculus with 24 samples.

Results

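The DOCK, RhoGEF and RhoGAP genes of the mouse were followed here through the open chromatin assigned to them in bone marrow-derived macrophages. Members were ATAC-seq peaks whose gene in the authors' peak table starts with Dock and a digit, Arhgef or Arhgap. Peaks that this table leaves out were added where the nearest transcription start site (TSS) listed there, within 50 kb of the middle of the peak, belongs to such a gene. The rule found 996 of 144411 peaks, at 68 genes: 275 peaks at 11 Dock genes, 239 at 25 Arhgef genes and 482 at 32 Arhgap genes. It takes names alone, so it also holds 14 peaks at Arhgap15os and Arhgap27os3, which are antisense transcripts and no GAPs. Assignment by distance leaves the regulated gene unknown.

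ATAC-seq uses a transposase to cut and tag DNA that nucleosomes leave open, and the count of reads in a peak is read as its accessibility. The macrophages came from 8- to 10-week-old male C57BL/6 mice and were grown for 5 days in L-cell conditioned medium. All groups, controls included, were LysM-Cre+/+, a Cre recombinase made in myeloid cells. The groups called wild type (WT) here were GRIP1wt/wt and those called KO were GRIP1fl/fl. GRIP1 is a coactivator of the glucocorticoid receptor and other nuclear receptors, encoded by Ncoa2. Both genotypes were treated with vehicle, with the glucocorticoid receptor agonist dexamethasone (Dex) at 100 nM, or with the type 2 cytokine interleukin 4 (IL4), which acts through STAT6, at 10 ng/ml. Titles give 24 h for every group, but vehicle libraries carry a treatment label of 25 hours. Each of the 6 groups held 4 libraries. Whether these stem from separate animals or cultures is not in the labels, and the p-values cover no more than library-to-library spread, which may be technical.

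Libraries held 5820149 to 21939330 counts in peaks, the lowest and the highest both in the WT Dex group, and no pair of libraries was identical. At Ncoa2, the targeted gene, 1 of 21 tested peaks (chr1:13256160-13256636) lay at 6.89 ± 0.629 CPM in WT vehicle and 3.09 ± 0.353 CPM in KO vehicle (SD, n = 4). Its log2 fold change was -1.15, -1.04 and -1.32 under vehicle, Dex and IL4. Another (chr1:13423543-13423943) rose by 2.96, 2.43 and 2.60, and the promoter peak moved by 0.02, -0.03 and 0.05. Lower in KO under some treatments were also chr1:13342449-13343216 (-0.62 with Dex, -0.80 with IL4), chr1:13295540-13295827 (-0.73 with IL4) and chr1:13267226-13267787 (-0.52 with IL4). The labels do not name the deleted exon. Of 13 macrophage marker symbols (Adgre1 and Emr1 name the same gene), 12 had a promoter peak. These peaks summed to 318.1 to 441 CPM per library. The lists for 7 other kinds of cell had a promoter peak at 2 to 6 of their genes. In such bulk data, fewer cells of a type and less open chromatin per cell cannot be told apart.

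The small GTPases RhoA, Rac and Cdc42 are molecular switches of the actin cytoskeleton, on when bound to GTP and off when bound to GDP. Exchange factors (GEFs) load GTP: the DOCK proteins act on Rac or Cdc42 through a DHR2 domain, while Arhgef proteins carry a Dbl homology domain. The Arhgap proteins (GAPs) speed GTP hydrolysis and switch the GTPase off. In macrophages these switches run migration, podosomes and the engulfment of particles and dying cells, as in the ELMO-Dock1-Rac pathway of efferocytosis.

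Promoter sequences were matched to 51 of the 68 genes by symbol (79 promoters, RefSeq, GRCm38.p6, the assembly of mm10), each 250 bases before to 50 after a start. They are printed 5′ to 3′ for 4 genes on which the results below turn, with capitals for the PU.1 core (GAGGAA, either strand), the motif of a factor that defines the macrophage lineage. The start of Dock10 (chr1:80758504-80758803, minus strand) lies in a peak that rose with Dex. Its internal start (chr1:80665303-80665602, minus strand) lies in a peak whose level moved little. The start of Dock2 (chr11:34783856-34784155, minus strand) is that of a gene with 6 falls with Dex and 7 rises with IL4, mostly at different peaks. The start of Arhgap25 (chr6:87533210-87533509, minus strand) rose with IL4. An internal start of Arhgap6 (chrX:169036361-169036660, plus strand) was higher in KO, and another Arhgap6 start lies before it (chrX:168794849-168795148).
Dock10 promoter at the gene start: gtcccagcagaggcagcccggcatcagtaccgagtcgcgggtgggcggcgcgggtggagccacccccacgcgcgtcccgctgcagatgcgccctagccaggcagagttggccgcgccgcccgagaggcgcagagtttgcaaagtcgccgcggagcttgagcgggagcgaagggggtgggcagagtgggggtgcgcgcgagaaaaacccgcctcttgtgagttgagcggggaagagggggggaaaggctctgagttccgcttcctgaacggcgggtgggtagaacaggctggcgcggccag
Dock10 internal promoter: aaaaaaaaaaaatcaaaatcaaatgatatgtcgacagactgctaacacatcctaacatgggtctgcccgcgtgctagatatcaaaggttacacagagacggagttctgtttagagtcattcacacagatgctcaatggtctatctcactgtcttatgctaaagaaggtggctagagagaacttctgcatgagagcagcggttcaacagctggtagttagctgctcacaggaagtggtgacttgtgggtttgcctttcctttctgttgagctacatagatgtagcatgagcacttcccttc
Dock2 promoter: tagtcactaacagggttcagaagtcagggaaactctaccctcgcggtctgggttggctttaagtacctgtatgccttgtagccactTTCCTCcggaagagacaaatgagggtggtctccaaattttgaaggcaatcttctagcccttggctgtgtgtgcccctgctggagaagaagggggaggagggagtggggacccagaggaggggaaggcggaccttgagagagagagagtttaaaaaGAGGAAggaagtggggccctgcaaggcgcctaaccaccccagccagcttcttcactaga
Arhgap25 promoter: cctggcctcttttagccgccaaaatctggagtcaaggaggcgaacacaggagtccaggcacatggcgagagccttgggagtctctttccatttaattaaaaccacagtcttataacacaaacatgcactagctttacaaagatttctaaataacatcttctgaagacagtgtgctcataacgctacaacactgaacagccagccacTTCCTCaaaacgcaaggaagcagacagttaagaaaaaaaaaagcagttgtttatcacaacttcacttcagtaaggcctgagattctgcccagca
Arhgap6 promoter: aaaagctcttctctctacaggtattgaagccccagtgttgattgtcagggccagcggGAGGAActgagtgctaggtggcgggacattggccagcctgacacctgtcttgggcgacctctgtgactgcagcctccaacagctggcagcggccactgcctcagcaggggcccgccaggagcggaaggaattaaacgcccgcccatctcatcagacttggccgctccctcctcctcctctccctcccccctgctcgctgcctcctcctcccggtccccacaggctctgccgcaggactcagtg

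The Dock10 promoter at the gene start was 70.0% G or C with 32 CG pairs and no PU.1 core, and its internal promoter was 43.7% G or C with 5 CG pairs and no PU.1 core. The Dock2 promoter held 2 PU.1 cores, the printed ones of Arhgap25 and Arhgap6 1 each, and the median promoter of the table was 52.7% G or C. A further promoter held 2 cores at Arhgap25 (chr6:87496278-87496577) and 0 at Arhgap6 (chrX:168794849-168795148). Among the 79 member promoters 25 held the PU.1 core (31.6%), against 28.3% of all 32851 promoters of that length. An AP-1 site (TGANTCA) was in 6 of 79 (7.59%, all promoters 7.81%), a STAT6 element (TTCNNNNGAA) in 2 of 79 (2.53%, all 6.95%) and a glucocorticoid receptor element core (GNACANNNTGTNC) in 0 of 79 (all 0.475%). Both strands were searched and matches of different motifs may overlap. A match is only these letters in this window.

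The member peaks were 122 to 2498 bases long (median 424, all peaks 392), and 766 lay inside the body of their own gene, 194 between genes and 36 inside another gene. Exons and introns were not told apart here. Within 1 kb of a TSS lay 93 of them (9.34%, against 11.4% of all peaks with a gene). Dock10 had the most peaks (79), followed by Arhgap26 (53). A FANTOM enhancer was noted in the authors' table for 90 of its 574 member peaks (15.7%, all peaks 13.8%). Of the 996, 931 passed the filter on low counts and were tested, 245 for Dock, 228 for Arhgef and 458 for Arhgap. The other 65 were not tested. At the distance limit, the last peaks inside it were those of Arhgap5 (49.9 kb, mean 0.977 CPM) and Dock2 (49.8 kb, 1.15 CPM), and the first outside belonged to Arhgap26 (51.6 kb, 0.905 CPM) and Arhgap31 (51.7 kb, 0.577 CPM).

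Dex against vehicle in WT asks which of these sites a glucocorticoid opens or closes. Of the 931 tested member peaks 82 rose (8.81%) and 84 fell (9.02%), beside 8.56% and 8.08% of all 130103 tested peaks, at an adjusted p below 0.05 in edgeR's quasi-likelihood test. The members as a whole thus lay near the background, and so did their median log2 fold change (0.01, all peaks 0.01). The changes were not spread evenly over the genes. Dock peaks rose more often than they fell (31 and 20 of 245, 12.7% and 8.16%), and 20 of the 31 rises were at Dock10. Without Dock10, 62 member peaks rose and 82 fell of 861 (7.20% and 9.52%). Arhgef peaks gave 15 rises and 23 falls of 228, and Arhgap peaks 36 and 41 of 458. The promoter peaks of the macrophage markers summed to 352.5 to 375.8 CPM in WT vehicle and 402.0 to 441.3 CPM in WT Dex, without overlap, and of 124 tested peaks of these genes 25 rose and 5 fell. The part of this in the members' counts was not tested. Changes of at least 2-fold were few: 14 members rose (1.50%, all peaks 1.33%) and 22 fell (2.36%, all peaks 2.09%).

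**Figure D1:**
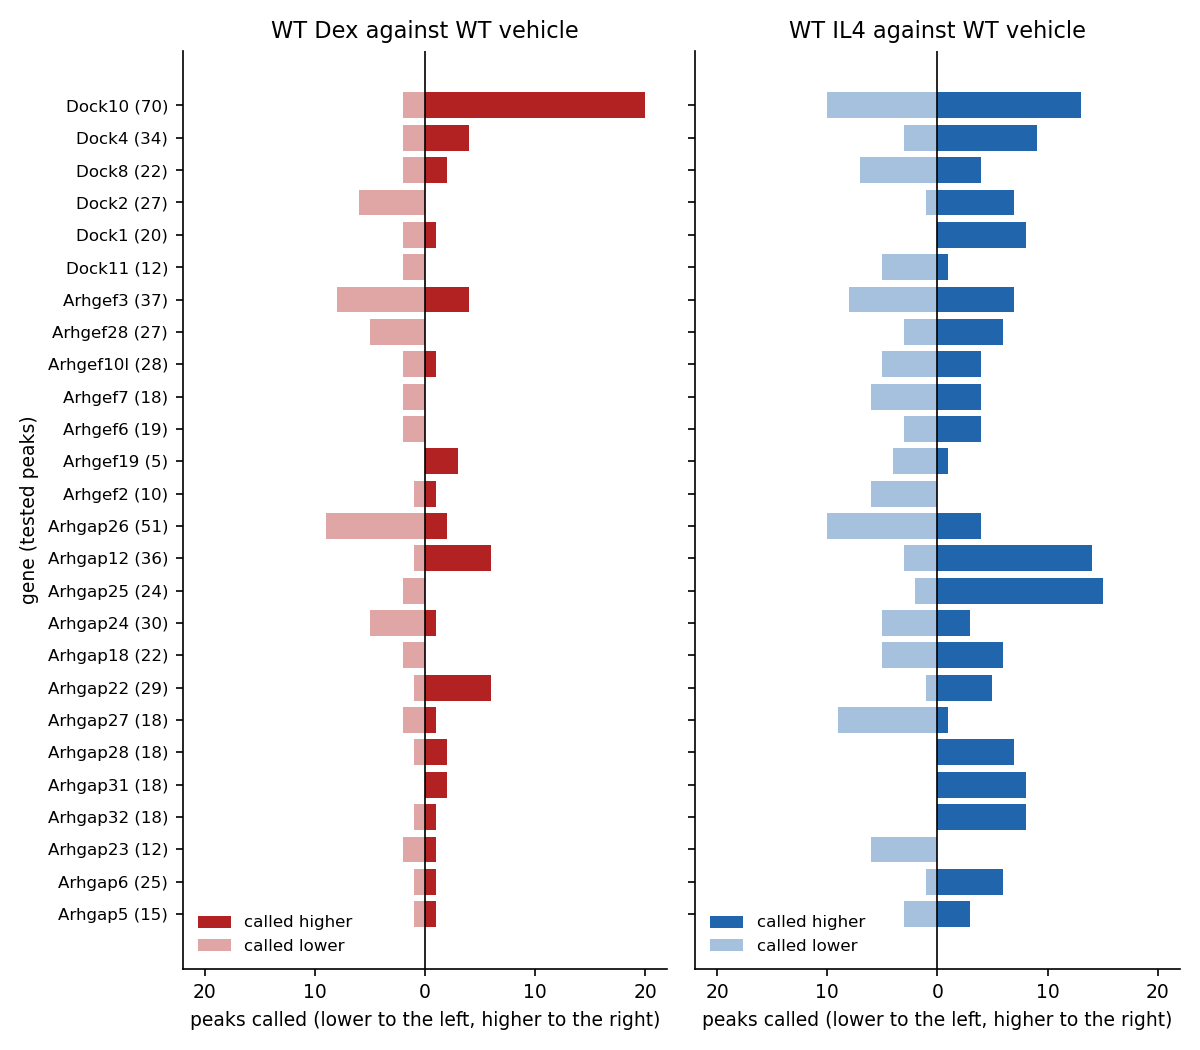
Number of peaks called higher (to the right) and lower (to the left) per gene in WT, with Dex on the left and IL4 on the right, for the genes with at least 8 calls in all. The tested peaks of each gene stand in parentheses. Dock10 has 20 rises with Dex, and Arhgap25 has 15 rises with IL4.

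Dock10, a Cdc42 and Rac exchange factor of leukocytes known as an IL4-induced gene of B cells, had 20 rises and 2 falls among its 70 tested peaks with Dex. Its strongest site lay past the end of the gene (chr1:80493770-80494260), 264.8 kb from the start of this 257.7 kb gene. There the 4 WT vehicle libraries gave 1.31, 0.894, 0.641 and 0.412 CPM and the WT Dex libraries 22.7, 15.5, 13.3 and 14.5 CPM. KO vehicle libraries gave 0.995, 0.994, 1.05 and 0.825 CPM and KO Dex libraries 6.07, 12.9, 15.7 and 7.64 CPM. In both genotypes every Dex library stood above every vehicle library, and the KO Dex libraries were widely spread. The log2 fold change was 4.27 (SE 0.38, adjusted p = 1.16e-07) in WT and 3.46 (SE 0.40, adjusted p = 4.50e-06) in KO. With IL4 the same peak read 2.15, 0.819, 1.12 and 1.40 CPM in WT, a log2 fold change of 0.64 (SE 0.62, adjusted p = 0.467) that was not called.

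A neighbouring peak (chr1:80496238-80496975) went from 5.45, 2.01, 2.99 and 3.09 CPM in WT vehicle to 30.5, 24.9, 24.9 and 20.6 CPM in WT Dex. The groups did not overlap, and the log2 fold change was 2.82 (SE 0.20, adjusted p = 4.26e-11). This peak carries a FANTOM enhancer in the authors' table. At the promoter (chr1:80758054-80758885) the WT vehicle libraries held 10.7, 13.5, 11.3 and 11.4 CPM and the WT Dex libraries 23.7, 27.1, 21.9 and 19.8 CPM. All Dex libraries were above all vehicle libraries, with a log2 fold change of 0.95 (SE 0.10, adjusted p = 2.59e-13) in WT and 0.92 (SE 0.10, adjusted p = 1.74e-12) in KO. All 3 tested peaks within 2 kb of the gene start rose, as did 12 of 52 inside the gene, 3 of 5 past its end and 2 of 10 before its start. The internal promoter (chr1:80665007-80666255) held 34.1 ± 2.97 CPM in WT vehicle and 34.3 ± 2.24 CPM in WT Dex (SD, n = 4), with a log2 fold change of -0.00 (SE 0.08, adjusted p = 0.981).

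**Figure D2:**
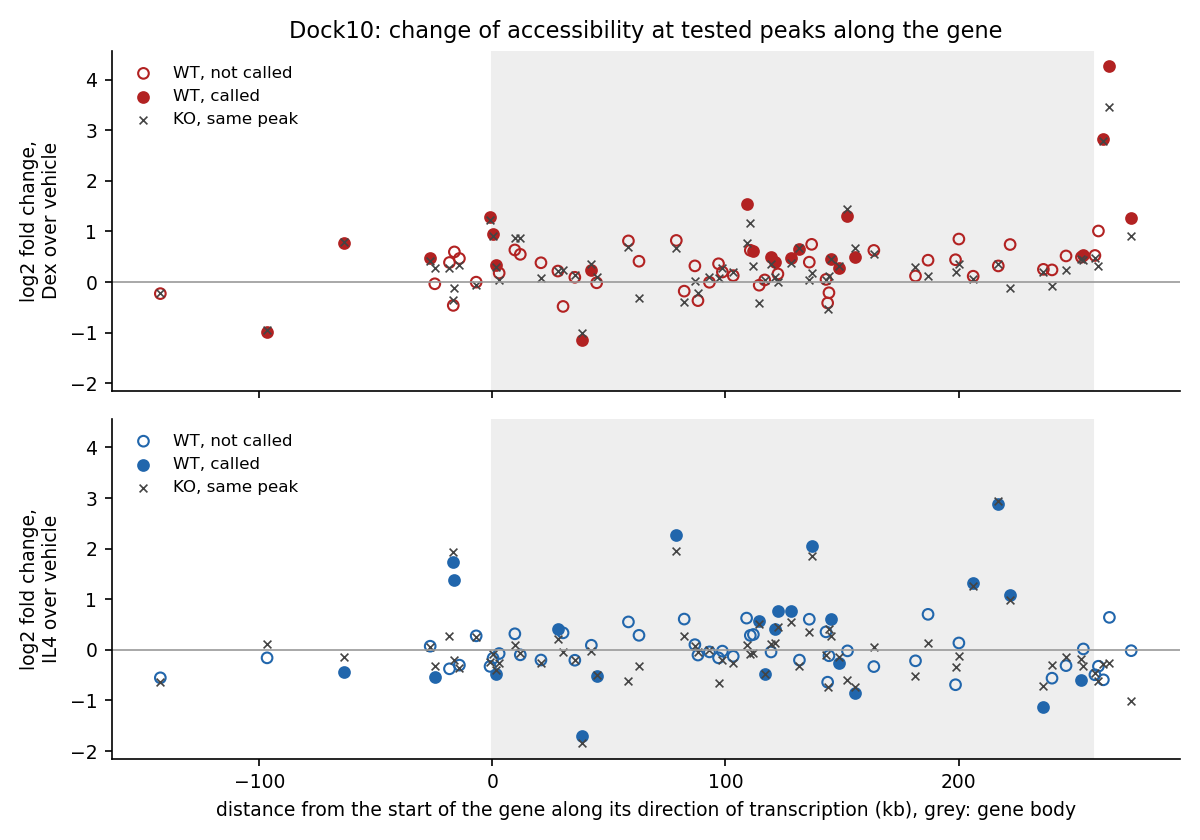
Log2 fold change of the 70 tested Dock10 peaks against their distance from the gene start in kb, with Dex above and IL4 below. Circles are WT, filled where called, and crosses are KO. The largest Dex values, 4.27 and 2.82 in WT, stand just past the end of the grey gene body, and the largest IL4 value, 2.87, stands inside it.

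Other DOCK genes followed the reverse or no common direction with Dex. The DOCK-A group (Dock1, Dock2 and Dock5, Rac exchange factors that work with ELMO) had 2 rises and 9 falls of 65 tested peaks (median log2 fold change -0.14). The DOCK-D group (Dock9, Dock10 and Dock11, exchange factors of Cdc42) had 21 and 6 of 102, with all rises but 1 at Dock10. Dock3 and Dock4 (DOCK-B) had 4 and 2 of 42. Dock2, the Rac exchange factor of leukocyte migration, had 6 falls and no rise among 27 peaks, and DESeq2 called 3 falls. Its peak at chr11:34525437-34525874, inside the gene and picked after its values were seen, fell from 11.9, 11.1, 11.8 and 10.6 CPM to 4.86, 3.88, 4.51 and 4.11 CPM. The libraries did not overlap, and the log2 fold change was -1.37 (SE 0.14, adjusted p = 1.55e-13). The largest fall by the naming rule (chr11:34734004-34734170) went from 1.31, 1.56, 1.39 and 1.65 CPM to 0.352, 0.369, 0.574 and 0.747 CPM, a log2 fold change of -1.38 (SE 0.35, adjusted p = 0.00214).

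In Dock4, an exchange factor of Rac, a peak inside the gene (chr12:40555111-40555463) went from 4.15, 4.25, 2.78 and 4.54 CPM in WT vehicle to 9.57, 7.02, 8.29 and 7.14 CPM with Dex. It read 9.18, 7.26, 7.24 and 8.47 CPM with IL4. Both treated groups lay above vehicle, with log2 fold changes of 1.03 (SE 0.15, adjusted p = 5.52e-08) and 1.02 (SE 0.15, adjusted p = 1.98e-08). Both comparisons share the WT vehicle libraries. Before Dock6 (chr9:21864526-21864999) the level rose from 2.56 ± 0.657 to 5.01 ± 0.937 CPM (SD, n = 4, log2 fold change 0.93 (SE 0.18, adjusted p = 5.83e-05)). Before Dock11 (chrX:35855208-35855545) it fell from 3.38, 2.35, 1.71 and 1.13 CPM to 0.986, 0.369, 0.985 and 0.747 CPM, with no overlap but a wide vehicle group. That log2 fold change was -1.41 (SE 0.30, adjusted p = 1.79e-04), and with IL4, against the same vehicle libraries, -1.57 (SE 0.31, adjusted p = 1.64e-05). A small peak inside Dock10 (chr1:80720248-80720418) had the fold change -1.14 (SE 0.30, adjusted p = 0.0038) with Dex, which missed the threshold without WT vehicle replicate 1 (-0.84).

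Among the Arhgef genes, Arhgef19, a RhoA exchange factor, had 3 of its 5 peaks rise with Dex. The largest rise (chr4:141271449-141272194, between genes) went from 18.9, 23.8, 27.1 and 25.9 CPM to 49.7, 57.6, 64.0 and 49.2 CPM, with IL4 at 35.4, 44.5, 44.4 and 41.5 CPM. Dex libraries stood highest, IL4 libraries next and vehicle libraries lowest, with no overlap between treated and vehicle. The log2 fold changes were 1.21 (SE 0.10, adjusted p = 1.68e-11) and 0.81 (SE 0.10, adjusted p = 5.77e-08). The promoter of Arhgef37 (chr18:61535706-61536983) rose from 9.88 ± 1.55 to 15.4 ± 1.81 CPM (log2 fold change 0.65 (SE 0.11, adjusted p = 1.80e-06)). Arhgef6, the alpha-PIX exchange factor of Rac and Cdc42 that binds PAK kinases, held the largest fall of all members. Its peak inside the gene (chrX:57260495-57261044) went from 5.99, 4.92, 3.74 and 2.27 CPM in WT vehicle to 2.25, 0.185, 0.656 and 1.03 CPM with Dex and 1.24, 0.702, 0.918 and 0.745 CPM with IL4. The highest Dex library lay just under the lowest vehicle library. Log2 fold changes were -1.87 (SE 0.31, adjusted p = 3.81e-05) with Dex and -2.27 (SE 0.33, adjusted p = 1.54e-06) with IL4, and in KO -2.24 and -2.36. Arhgef3, a RhoA exchange factor, had 8 falls and 4 rises of 37 peaks, and Arhgef28, another, 5 falls and no rise of 27. The largest fall of Arhgef28 (chr13:97766971-97767325, log2 fold change -1.30 (SE 0.39, adjusted p = 0.0125)) was not called without WT vehicle replicate 2 (-1.11). The largest rise of Arhgef3 (chr14:27174317-27174586, 0.92 (SE 0.32, adjusted p = 0.0331)) was not called by DESeq2 (0.94) nor without any of 5 single libraries, replicates 1, 2 and 4 of WT Dex and replicates 2 and 3 of WT vehicle (0.75 to 0.94).

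Among the Arhgap genes with Dex, Arhgap12 and Arhgap22, both GAPs of Rac, had 6 rises each (of 36 and 29 peaks, with 1 fall each), and Arhgap19 had 4 of 7 rise and none fall. Arhgap26 (GRAF1, a GAP of RhoA and Cdc42 with a role in endocytosis) had 9 falls and 2 rises of 51. The largest fall by the rule lay at Arhgap26 (chr18:39378228-39378873), from 5.99, 5.48, 5.55 and 4.84 CPM to 3.17, 0, 1.07 and 1.68 CPM. The Dex libraries were all lower but uneven, and the log2 fold change was -1.65 (SE 0.31, adjusted p = 4.88e-04). A peak before Arhgap27, inside another gene (chr11:103370332-103370852), fell from 10.2, 7.82, 4.70 and 4.02 CPM to 2.82, 1.66, 2.54 and 1.87 CPM with Dex and to 2.31, 2.34, 1.53 and 1.77 CPM with IL4. Treated libraries were all below the vehicle libraries, of which replicates 1 and 2 stood highest. The log2 fold changes were -1.60 (SE 0.22, adjusted p = 5.94e-07) and -1.74 (SE 0.22, adjusted p = 4.10e-08). Among peaks with a mean of at least 1 CPM over all libraries, rises were led by Arhgap28 (chr17:68006099-68006256, 1.61 (SE 0.30, adjusted p = 2.71e-05)), a RhoA GAP, then Arhgap12 (chr18:6163056-6163418, 1.54 (SE 0.33, adjusted p = 2.50e-04)) and Arhgap39 (chr15:76792064-76792445, 1.43 (SE 0.25, adjusted p = 5.61e-06)). These 3 peaks had means of 0.522 to 1.20 CPM in WT vehicle, so few counts stand behind each.

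**Figure D3:**
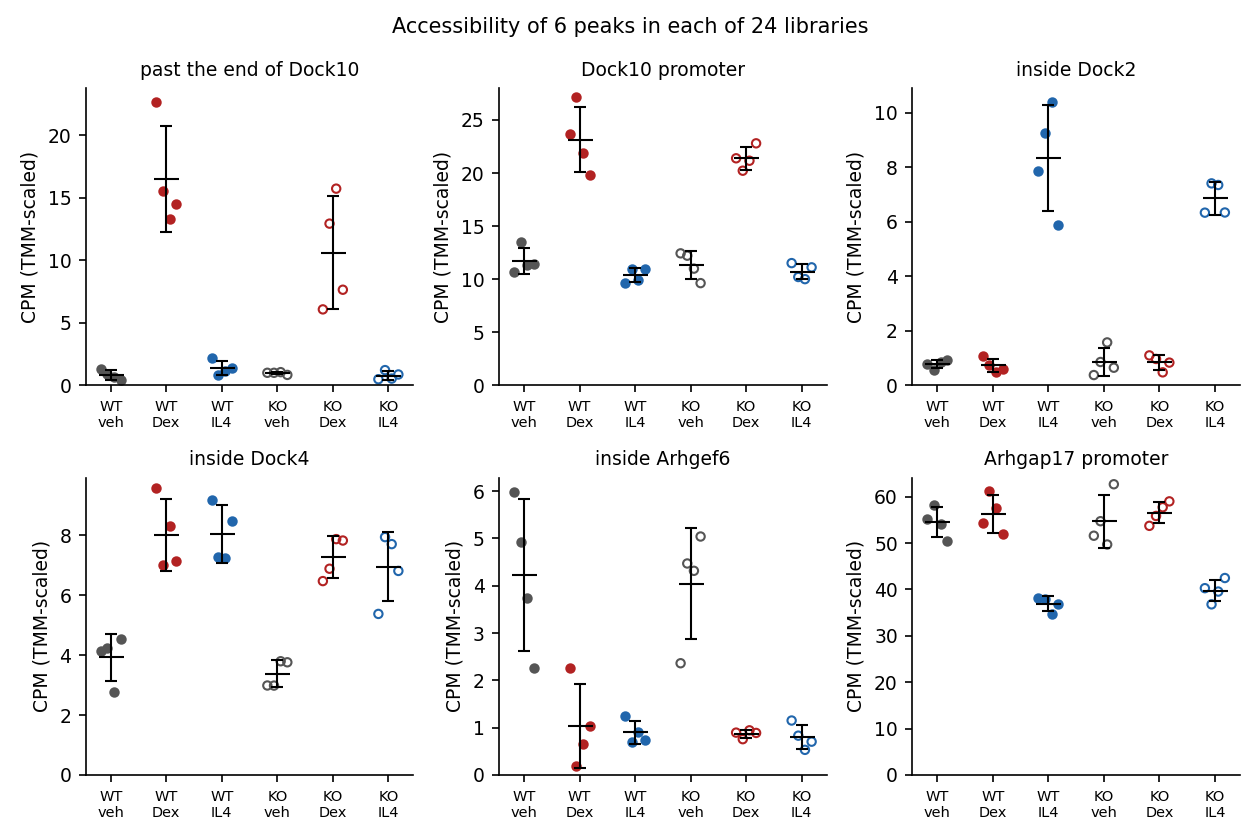
TMM-scaled CPM of 6 member peaks in each of the 24 libraries. Points are libraries (filled WT, open KO), horizontal bars the mean of 4 and whiskers the SD. The Dock10 sites are high under Dex in both genotypes, the Dock2 site under IL4, the Dock4 site under both, and the Arhgef6 site is low under both. The Arhgap17 promoter is low under IL4.

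IL4 changed more member peaks than Dex in WT: 184 rose (19.8%) and 152 fell (16.3%), beside 19.3% and 16.1% of all tested peaks. Large rises outnumbered large falls, as they did among all peaks: 82 members rose at least 2-fold (8.81%, all peaks 8.45%) and 19 fell as much (2.04%, all peaks 1.56%). Dock peaks gave 48 rises and 36 falls of 245, Arhgef peaks 38 and 42 of 228, and Arhgap peaks 98 and 74 of 458. Promoter peaks of the macrophage list summed to 352.5 to 375.8 CPM with vehicle and 322.8 to 336.6 with IL4 in WT. Of the 124 tested peaks of its genes 26 rose and 33 fell. Promoter peaks of all genes also tended lower with IL4 (43.0% called lower, median log2 fold change -0.21). Those of 3 other marker lists stood higher with IL4. In WT the T and NK cell list (2 of 9 genes with a promoter peak) summed to 13.6 to 17.0 CPM with vehicle and 23.0 to 27.7 with IL4, although of all 36 tested peaks of its genes 4 rose and 9 fell (median log2 fold change -0.06). The stroma list (2 of 6) summed to 4.69 to 5.98 and 7.75 to 10.2 CPM, and the erythroid and megakaryocyte list (3 of 8) to 24.0 to 27.9 and 34.2 to 38.8 CPM. The median CPM per kb of peak in the erythroid and megakaryocyte list went the other way, from 6.0 with vehicle to 5.07 with IL4 in WT. Of all 27 tested peaks of its genes 7 rose and 4 fell. The other genes of these lists had no peak within 1 kb of a TSS, and the part of such cells in the results was not tested.

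The DOCK-A genes had 18 rises and 3 falls of 65 peaks with IL4 (median log2 fold change 0.22, all peaks -0.01). Dock1, the exchange factor of the ELMO-Rac engulfment pathway, had 8 of 20 peaks rise and none fall, and Dock2 had 7 of 27 rise and 1 fall. The largest rise of all members was inside Dock2 (chr11:34703698-34704180), from 0.768, 0.559, 0.854 and 0.927 CPM in WT vehicle to 7.85, 9.25, 10.4 and 5.87 CPM in WT IL4. Dex libraries read 1.06, 0.739, 0.492 and 0.607 CPM there, within the vehicle range or close to it. The log2 fold change with IL4 was 3.41 (SE 0.22, adjusted p = 7.01e-24) in WT and 3.02 (SE 0.23, adjusted p = 4.47e-20) in KO. The Dock2 peak that fell with Dex (chr11:34525437-34525874) read 16.1, 13.5, 18.1 and 14.1 CPM with IL4, above all vehicle libraries, a log2 fold change of 0.43 (SE 0.11, adjusted p = 0.00161). Between IL4 and Dex it differed by 1.80 (SE 0.13, adjusted p = 7.55e-22). At the promoter of Dock1 (chr7:134668960-134671249) the libraries went from 24.7, 26.9, 30.1 and 27.2 CPM to 34.9, 36.0, 35.9 and 33.3 CPM, without overlap (log2 fold change 0.37 (SE 0.07, adjusted p = 1.97e-05)).

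Dock4 had 9 rises and 3 falls of 34 with IL4. A peak inside the gene (chr12:40620484-40620926), went from 0.845, 1.45, 1.71 and 1.65 CPM to 7.69, 7.43, 9.28 and 6.33 CPM (log2 fold change 2.47 (SE 0.19, adjusted p = 1.24e-19)). A weak peak 945 bases before an internal Dock4 start (chr12:40793190-40793388) rose from 0.230, 0, 0.320 and 0.515 to 2.07, 1.52, 1.94 and 1.96 CPM (2.73 (SE 0.41, adjusted p = 4.02e-08)), while the peak at the main start (chr12:40445392-40447277) read 75.8 ± 2.97 and 65.4 ± 1.41 CPM (-0.21 (SE 0.06, adjusted p = 0.00414)). The median log2 fold change of all 13869 peaks within 1 kb of a TSS was also -0.21 with IL4. Dock10 was mixed, with 13 rises and 10 falls of 70. The largest rise (chr1:80541490-80541899, 217.1 kb from the start) went from 1.46, 1.23, 0.961 and 0.825 CPM to 8.68, 7.96, 9.79 and 7.54 CPM, with Dex at 1.83, 1.66, 0.903 and 1.40 CPM. IL4 stood apart from both other groups, with log2 fold changes of 2.87 (SE 0.20, adjusted p = 3.71e-22) against vehicle and 2.56 (SE 0.18, adjusted p = 3.17e-22) against Dex. One peak inside Dock10 (chr1:80602875-80603823), picked after its values were seen, moved in opposite directions. Vehicle libraries read 19.4, 15.7, 16.4 and 15.4 CPM, Dex libraries 24.9, 24.9, 22.5 and 23.1 and IL4 libraries 9.76, 8.60, 9.59 and 9.50, with no overlap between the groups. The log2 fold change was 0.49 (SE 0.09, adjusted p = 1.30e-05) with Dex and -0.86 (SE 0.10, adjusted p = 1.92e-11) with IL4, both against the same vehicle libraries. Dock8, a Cdc42 exchange factor needed for leukocyte migration through tissue, had 4 rises and 7 falls of 22. Its promoter (chr19:24999150-24999984) went from 28.0, 31.6, 27.7 and 28.3 CPM to 20.1, 21.9, 20.8 and 21.5 CPM, without overlap (-0.45 (SE 0.08, adjusted p = 3.05e-06)). Dock11 had 1 rise and 5 falls of 12.

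Arhgef genes showed both directions with IL4. Arhgef6 held the largest rise of the family (chrX:57229135-57229397, between genes) as well as its largest fall. That rise went from 0.615, 0.447, 0.427 and 0.412 CPM to 2.89, 2.93, 2.75 and 2.70 CPM, evenly in the 4 IL4 libraries (2.52 (SE 0.30, adjusted p = 4.59e-11)). Inside Arhgef3 a peak (chr14:27280086-27280729) went from 1.23, 1.68, 1.92 and 2.06 CPM to 7.94, 9.07, 8.16 and 5.68 CPM (2.20 (SE 0.18, adjusted p = 4.63e-18)), and inside Arhgef10, a RhoA exchange factor, a peak (chr8:14934087-14934668) from 3.76, 2.91, 3.42 and 5.36 CPM to 11.6, 13.1, 14.2 and 12.8 CPM (1.73 (SE 0.14, adjusted p = 6.77e-19)). In both, every IL4 library exceeded every vehicle library. Arhgef3 as a whole had 7 rises and 8 falls of 37, a balance that depended on the scaling (10 and 5 with total counts, 8 and 8 with loess offsets). Arhgef2 (GEF-H1, a RhoA exchange factor held on microtubules) had 6 falls and no rise of 10. Arhgef7 (beta-PIX) had 4 rises and 6 falls of 18.

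Among the GAPs, Arhgap25 and Arhgap12, which limit Rac during phagocytosis, had the most rises with IL4. Arhgap25, a Rac GAP of blood cells, had 15 rises and 2 falls of 24 peaks, and Arhgap12 14 and 3 of 36. The largest was inside Arhgap12 (chr18:6029623-6030322), from 2.23, 2.12, 1.39 and 1.96 CPM in WT vehicle to 13.1, 12.6, 13.2 and 14.6 CPM in WT IL4 (log2 fold change 2.77 (SE 0.16, adjusted p = 4.22e-27)). At the Arhgap25 promoter (chr6:87532739-87533458) vehicle libraries held 17.3, 19.6, 16.3 and 16.5 CPM and IL4 libraries 25.5, 27.0, 26.6 and 23.9 CPM, without overlap (0.57 (SE 0.09, adjusted p = 4.57e-08)). With Dex this promoter read 14.9, 17.4, 16.5 and 16.9 CPM, a log2 fold change of -0.09 (SE 0.09, adjusted p = 0.564). Arhgap31 (CdGAP) and Arhgap32 (p250GAP), GAPs of Cdc42 and Rac, each had 8 of 18 peaks rise and none fall, and Arhgap28 7 of 18 and none. In Arhgap31 the largest (chr16:38692647-38692870) went from 0.307, 0.447, 0.214 and 0.412 CPM to 2.15, 2.17, 2.75 and 1.96 CPM (2.68 (SE 0.36, adjusted p = 1.48e-09)). Inside Arhgap15, a Rac GAP of myeloid cells, a peak (chr2:43868464-43868800) rose from 0.967 ± 0.483 to 4.59 ± 0.330 CPM (2.22 (SE 0.24, adjusted p = 2.69e-13)), and before Arhgap5 (p190-B RhoGAP) another (chr12:52432645-52432986) from 0.567 ± 0.382 to 2.83 ± 0.287 CPM (2.38 (SE 0.33, adjusted p = 9.75e-09)).

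At other GAP genes falls outnumbered rises with IL4. All 5 tested peaks of Arhgap4 fell, as did 9 of 18 at Arhgap27 (1 rose), 6 of 12 at Arhgap23 (none rose) and 10 of 51 at Arhgap26 (4 rose). Under other scalings 3 to 6 peaks fell at Arhgap23, 4 to 5 at Arhgap4, 8 at Arhgap27 and 9 to 10 at Arhgap26. At Arhgap26 24 of the 51 peaks had a value above 0 and the median log2 fold change was -0.03. The Arhgap4 promoter peak (chrX:73911098-73912122) went from 18.5, 21.8, 19.3 and 18.9 CPM to 12.7, 14.7, 10.2 and 11.9 CPM (-0.64 (SE 0.10, adjusted p = 5.21e-07)), with Dex at 14.2, 17.5, 15.4 and 13.0 CPM (-0.42 (SE 0.10, adjusted p = 0.00156)). Dex libraries lay below all vehicle libraries and overlapped with those of IL4. The promoter of Arhgap17 (RICH1, a GAP of Cdc42 and Rac) went from 55.1, 58.2, 54.0 and 50.4 CPM to 38.1, 38.0, 34.7 and 37.0 CPM (chr7:123369458-123370446, -0.56 (SE 0.07, adjusted p = 1.47e-10)), and its Dex libraries read 54.3, 61.3, 57.5 and 52.0 CPM, in the vehicle range but for 1 higher library. With IL4, 11 of the 90 tested member promoters rose (12.2%) and 29 fell (32.2%), beside 6.28% and 43.0% of the 13869 promoter peaks of all genes. Their median log2 fold changes were -0.19 for the members and -0.21 for all genes. Between 10 and 50 kb from a TSS, 100 members rose and 57 fell of 494 (20.2% and 11.5%), near the shares of all peaks at that distance (20.6% and 12.7%). With Dex 7 member promoters rose and 3 fell (7.78% and 3.33%, all promoter peaks 8.87% and 3.11%).

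Promoters of further myeloid members were read whatever their change, and that of Arhgef6, also on this list, is not reported here. The promoter of Arhgef2 (chr3:88620753-88622084) held 30.7 ± 2.73 CPM with vehicle and 24.3 ± 1.64 with IL4 (SD, n = 4, log2 fold change -0.33 (SE 0.08, adjusted p = 2.91e-04)), and that of Arhgef7 (chr8:11757778-11759212) 21.4 ± 1.22 and 16.9 ± 0.936 (-0.34 (SE 0.09, adjusted p = 0.00104)). Arhgef1, the RhoA exchange factor that acts in leukocyte adhesion and migration, read 47.4 ± 3.46, 52.4 ± 3.55 and 42.5 ± 1.39 CPM with vehicle, Dex and IL4 at its promoter (chr7:24903812-24904662), with neither change called. Arhgap45 (HMHA1), a GAP of blood cells, read 13.5 ± 1.75, 15.3 ± 2.00 and 13.0 ± 1.16 CPM, also without a call. That peak (chr10:80018684-80019253) lay within 1 kb of a TSS of the authors' table. The matched RefSeq promoters of Arhgap45 overlap another peak (chr10:80016470-80017891). At Dock2 the promoter (chr11:34783038-34784384) had the log2 fold change -0.25 (SE 0.08, adjusted p = 0.0126) with IL4, which missed the threshold without WT vehicle replicate 2 (-0.20) and under loess offsets (-0.12) and total-count scaling (-0.19). The Arhgap15 promoter (chr2:43748076-43749017) had 0.31 (SE 0.11, adjusted p = 0.0344) with Dex, a call lost with DESeq2 (0.31), loess offsets (0.27), total-count scaling (0.26), the 8 libraries of the contrast alone (0.30) and without any of 5 single libraries, WT Dex replicates 3 and 4 and WT vehicle replicates 1, 2 and 4 (0.26 to 0.32).

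Set directly against each other in WT, IL4 and Dex differed at 445 member peaks, of which 241 favoured IL4 (25.9%) and 204 favoured Dex (21.9%), beside 23.4% and 21.7% of all tested peaks. Scaling by total counts alone gave 280 and 141, and moved the median log2 fold change of all peaks from -0.02 to 0.09. The 2 largest differences in each direction were at sites in or near Dock10, Dock2 and Arhgap31. The Dock10 peaks past its end were lower with IL4 by -3.62 (chr1:80493770-80494260) and -3.41 (chr1:80496238-80496975) on the log2 scale, and the inner peaks of Dock2 (chr11:34703698-34704180) and Arhgap31 (chr16:38692647-38692870) were higher by 3.53 and 3.04. All 4 had adjusted p between 1.80e-26 and 2.35e-08.

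The same contrasts were read in KO. With Dex 68 members rose and 69 fell (7.30% and 7.41%, all peaks 6.97% and 6.63%), and with IL4 161 rose and 125 fell (17.3% and 13.4%, all peaks 17.0% and 13.9%). Of the 166 members called with Dex in WT, 163 moved the same way in KO and 94 were also called there. Of the 336 called with IL4, 332 moved the same way and 233 were called. All tested peaks gave similar shares, with 97.7% and 98.0% in the same direction. Dock10 had 19 rises and 2 falls with Dex in KO. All 20 of its peaks that rose in WT had a positive value in KO, and 15 of them were called there. The difference between the genotypes in the response was itself tested. No member passed for Dex or for IL4 in edgeR's interaction test (all peaks 0% and 0.00231%), and DESeq2 called none either. At an unadjusted p below 0.05 stood 25 and 30 members of 931, beside 4498 and 5336 of all 130103 tested peaks. For the strongest Dock10 site the Dex response differed between KO and WT by -0.81 (SE 0.74, adjusted p = 1.00).

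**Figure D4:**
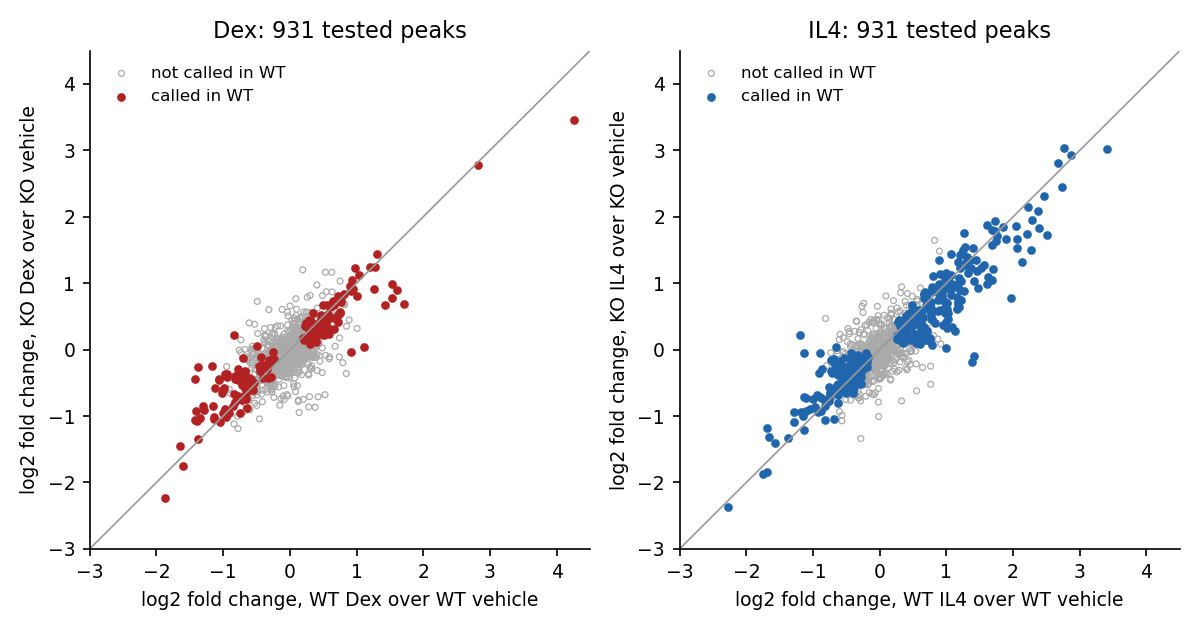
Log2 fold change of each of the 931 tested member peaks in KO against that in WT, for Dex on the left and IL4 on the right. Filled points are called in WT, and the line marks equal change. Of the called points 163 of 166 and 332 of 336 have the same sign in both genotypes.

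Between genotypes under the same treatment few members differed, and those that did lay mostly at 1 gene. With vehicle 14 were higher and 1 lower in KO (1.50% and 0.107%, all peaks 0.304% and 0.312%), with Dex 16 and 3 (1.72% and 0.322%, all peaks 0.436% and 0.517%) and with IL4 12 and 2 (1.29% and 0.215%, all peaks 0.473% and 0.368%). Arhgap6, a GAP of RhoA on the X chromosome, gave 13, 13 and 10 of the higher calls, from 25 tested peaks, and no lower call. Without it 2, 6 and 4 member peaks were called. No Dock peak of 245 was called by edgeR or DESeq2 under any treatment, with 24, 28 and 20 at an unadjusted p below 0.05. Of all 130103 tested peaks 11815, 13169 and 11907 stood below that value. At chrX:169106109-169106714, inside Arhgap6, WT vehicle libraries held 14.9, 14.6, 15.6 and 13.6 CPM and KO vehicle libraries 31.9, 29.4, 28.1 and 25.9 CPM. The KO libraries all lay above the WT libraries, by 0.97 (SE 0.09, adjusted p = 3.18e-14) on the log2 scale with vehicle, 1.07 (SE 0.09, adjusted p = 4.33e-18) with Dex and 0.86 (SE 0.09, adjusted p = 1.72e-12) with IL4. The peak at the internal promoter (chrX:169036296-169037206) differed by 0.96, 0.90 and 0.91. Summed over the 25 peaks, WT libraries held 76.4 to 84.2 CPM with vehicle, 78.2 to 88.5 with Dex and 87.9 to 95.4 with IL4. KO libraries held 140.9 to 161, 146 to 164 and 151.0 to 174 CPM, without overlap between genotypes. The KO to WT ratio of the means was 1.88, 1.91 and 1.76, and 24 of 25 peaks had a value above 0 in all 3 comparisons.

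The higher KO counts were not particular to Arhgap6. They ran over its neighbours on both sides, with medians of 0.93, 0.95 and 1.02 (vehicle, Dex and IL4, log2) at the 18 peaks of Tmsb4x, 0.93, 0.96 and 0.97 at the 11 peaks of Tlr7, 0.80, 0.84 and 0.88 at the 9 of Msl3 and 0.85, 0.84 and 0.90 at the 21 of Mid1. At Tceanc, -2286 to -2247 kb from the first Arhgap6 peak, the medians were 0.06, -0.05 and -0.09. On the part of the X chromosome more than 6 Mb before Arhgap6, the medians of 2422 peaks were -0.02, -0.02 and -0.03. Of those, 1, 6 and 5 were called. ATAC-seq counts rise with accessibility and with the number of DNA copies, and in these counts the 2 cannot be told apart.

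**Figure D5:**
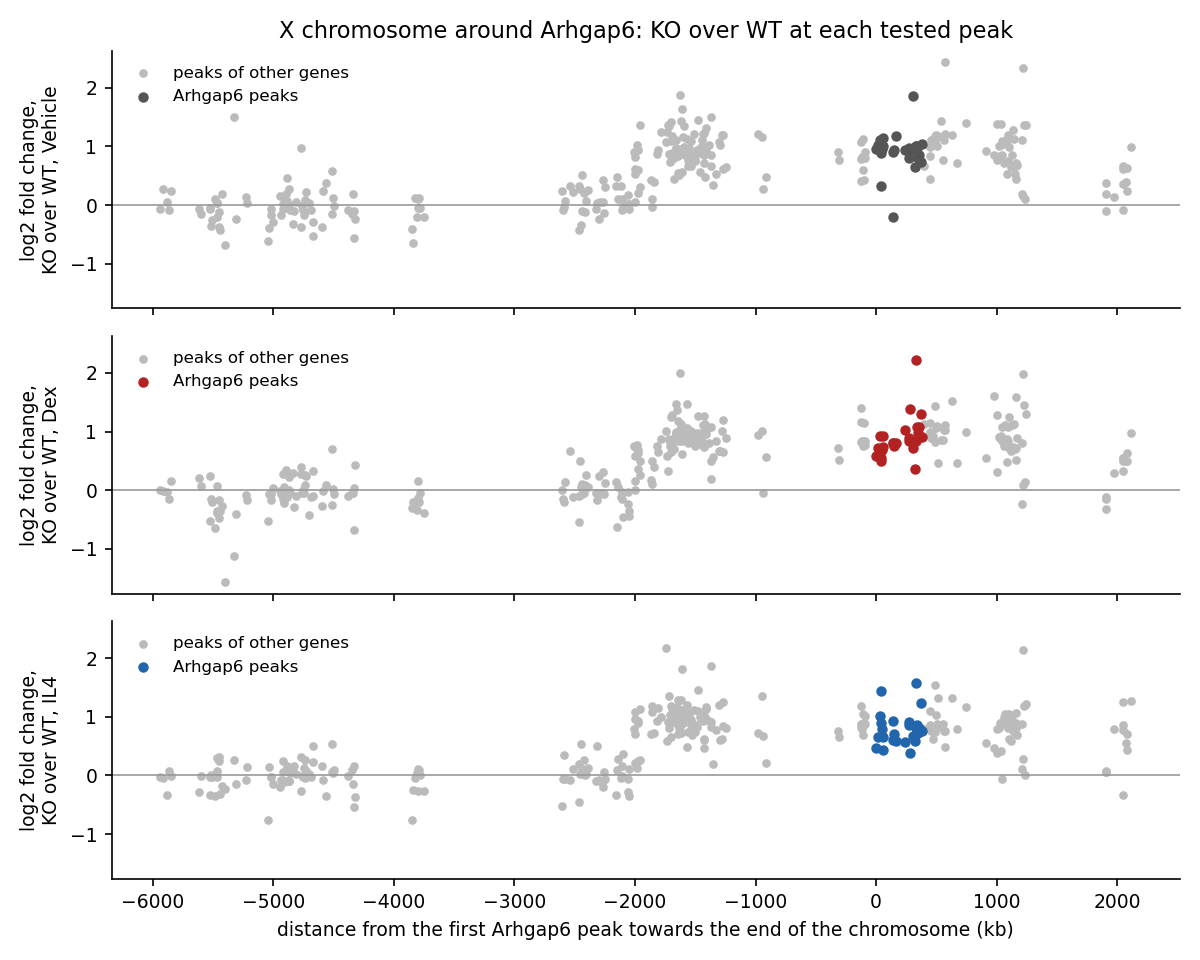
Log2 fold change of KO over WT for each tested peak on the X chromosome around Arhgap6, against the distance in kb from its first peak, with vehicle, Dex and IL4 from top to bottom. Arhgap6 peaks are coloured and other peaks grey. Values sit near 0 as far as Tceanc and near 1 from Gm8817 on, through Arhgap6 and Mid1, to G530011O06Rik.

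Outside Arhgap6, a peak at Arhgap8 (chr15:84714622-84715426) went from 2.00, 2.23, 1.71 and 2.47 CPM in WT vehicle to 4.85, 4.75, 4.71 and 4.40 CPM in KO vehicle, without overlap. Its log2 fold change was 1.15 (SE 0.19, adjusted p = 1.84e-05) with vehicle, 1.12 with Dex and 0.96 with IL4. Of the 14 tested Arhgap8 peaks 1 was called with vehicle, 1 with Dex and 3 with IL4. Among those 3, 1 was lower in KO. Within 2 Mb of that gene 4.03%, 5.29% and 7.30% of 397 other peaks were called between the genotypes, well above the share of all peaks. Inside Arhgef3 a peak (chr14:27123352-27123967) was lower in KO under Dex, at 21.2, 14.6, 19.2 and 19.1 CPM in WT and 12.2, 12.9, 12.1 and 13.3 CPM in KO (-0.58 (SE 0.10, adjusted p = 4.15e-05)). With vehicle its groups overlapped at 1 library (WT 12.4, 9.84, 15.6 and 13.0, KO 9.32, 9.01, 9.94 and 7.70 CPM), with -0.51 (SE 0.12, adjusted p = 0.013), and it was not called without KO vehicle replicate 4 (-0.44) or WT vehicle replicate 3 (-0.40). The same peak rose with Dex in WT by 0.58 (SE 0.10, adjusted p = 1.37e-05).

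Other genes around these GTPases, from lists written down with these genes, was counted in the same way, beside the shares of all peaks given above. Other exchange factors and DOCK partners such as Vav1, Tiam1 and Elmo1 gave 65 rises and 84 falls of 734 with Dex in WT (8.86% and 11.4%) and 161 and 131 with IL4 (21.9% and 17.8%). Other GAPs and GDIs gave 28 and 17 of 244 (11.5% and 6.97%), and 57 and 44. Effectors such as the PAK and WAVE genes gave 52 and 51 of 470 (11.1% and 10.9%), and 102 and 102 (21.7% each). The median log2 fold change of these 3 lists lay between -0.05 and 0.00 in both comparisons.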

How the data were processed

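ATAC-seq was deposited for 24 libraries. Tools listed in the submitters' processing notes, with no version, were featureCounts, MACS2, Bowtie2, fastp, SAMtools and edgeR, and the build was mm10. The authors deposited whole-number read counts per peak for 144411 shared peaks, and a table of log2 fold changes, used here only for gene names, distances and a check of scale.

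Counts were scaled by TMM (factors 0.935 to 1.065) and fitted in edgeR 4.0.16 (R 4.3.3) with a mean per group. Peaks with low counts were filtered, which left 130103. Quasi-likelihood F tests were adjusted by Benjamini-Hochberg over all of them, with calls at 0.05, and the fit was tested on simulated counts. Levels are TMM-scaled CPM (counts scaled to library size). SE is the log2 fold change divided by the square root of F.

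Members and lists were chosen with earlier results of these data known. Named peaks were, per family and treatment, the 3 largest called rises and 2 largest falls with 1 peak per gene and a mean of at least 1 CPM, the promoters with the largest changes, the smallest p per genotype comparison, and set promoters of myeloid genes. Any other named peak is said to be chosen after its values were seen. Alternatives were DESeq2 1.42.0, other scalings, filters, thresholds and assignment windows, a replicate block and each library left out. Some items are not reported here.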

Additional observations from a re-analysis of the deposited data

Results flagged for a closer look

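In 12 of 342 groups of 4 libraries (57 named peaks in 6 groups), 1 library stood far from the other 3. Chance gives this in about 1 in 20 groups.

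At Dock10 (chr1:80496238-80496975) KO vehicle replicate 1 read 1.865 CPM, with the others at 3.208 to 3.477. At Dock2 (chr11:34734004-34734170) KO IL4 replicate 3 read 1.947 CPM, the others 1.058 to 1.151. Inside Dock4, at the peak that starts at chr12:40620484, KO Dex replicate 3 read 1.73 CPM, the others 0.948 to 1.032. The Dock2 and Dock4 levels are low, below the median of the member peaks (2.79 CPM).

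At an Arhgef3 peak not described above (start chr14:27376100) WT Dex replicate 1 read 13.73 CPM beside 9.601 to 10.15. The Arhgef2 promoter read 26.69 CPM in WT vehicle replicate 4 beside 31.8 to 32.64, and the Arhgef1 promoter 47.63 CPM in KO IL4 replicate 4 beside 40.0 to 40.8. At Arhgef10 KO vehicle replicate 1 read 4.102 CPM beside 3.391 to 3.407. At a further Arhgef6 peak (start chrX:57282272) KO vehicle replicate 4 read 1.191 CPM beside 1.616 to 1.703.

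At Arhgap26 WT IL4 replicate 1 read 3.72 CPM beside 1.676 to 1.873. At the peak inside Arhgap15 (start chr2:43868464) KO IL4 replicate 4 read 3.911 CPM beside 2.92 to 3.022. At an Arhgap4 peak other than the promoter peak above (start chrX:73910576) WT IL4 replicate 2 read 1.405 CPM beside 0.714 to 0.745. At an Arhgap23 peak (start chr11:97489534) WT vehicle replicate 3 read 4.485 CPM beside 4.947 to 5.03.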

How the results depend on the processing

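Counts of called members stayed within 1.5 times the main count under DESeq2, the other scalings, both filters and the fit on the compared groups alone. Without any single library they ranged over 134 to 170 (WT Dex), 305 to 343 (WT IL4), 106 to 143 (KO Dex), 245 to 294 (KO IL4), 398 to 449 (WT IL4 against Dex), 11 to 16 (KO against WT, vehicle), 15 to 20 (Dex) and 11 to 16 (IL4), and 0 to 0 for both interactions. In that order, members within 10 kb of a TSS gave 50, 130, 47, 104, 154, 6, 6 and 6, and calls of at least 2-fold 36, 101, 23, 77, 130, 7, 5 and 3, since fewer peaks can pass. At an adjusted p below 0.01, 107 (WT Dex) and 81 (KO Dex) remained past the threshold. Without Arhgap6, chosen after seeing the data, the genotype counts were 2, 6 and 4. The replicate block gave 173, 349, 144, 295, 453, 17, 21 and 15, and 0 and 0 for the interactions. Same-numbered libraries deviated together within a genotype (24 of 24 correlations above 0, 9 above 0.1, 0.00337 to 0.202) but not across genotypes (-0.0673 to 0.0268), and 23 of 24 libraries were closest to their own number. This is a hint from the data, since the labels state no pairing. A replicate block within genotype, added after seeing the data, gave 200 (WT Dex), 370 (WT IL4), 178 (KO Dex), 324 (KO IL4), 474 (WT IL4 against Dex) and 0 and 0 for the interactions. Of 172 results for named peaks, 138 held under every alternative. In all, 139 values missed the threshold and 1 turned, the Arhgef1 promoter between IL4 and Dex in WT (0.0108 with loess offsets). The cause was not tested. Weak peaks rest on few counts.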
